A study of Homo sapiens with 8 samples.

Results

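The oncofetal and imprinted hepatoma genes are a list of 10 genes that are active in fetal liver or other embryonic tissue. Most are turned down after birth, and they often reappear in liver tumours. The list was given by symbol and holds AFP, GPC3, DLK1, IGF2, H19, LIN28B, IGF2BP1, IGF2BP3, PEG10 and HMGA2. Of these 10 genes, 9 were found by symbol among the 17561 genes of the deposited table, whereas H19 was not analysed here. The genes were read in HepG2 cells, a human line derived from a liver tumour, 48 h after transfection with pGRHL2 (4 libraries) or with the control plasmid pcDNA3 (4 libraries). pGRHL2 carried a flag-tagged cDNA of GRHL2, a transcription factor of epithelial cells, driven by the EEF1A1 promoter and followed by EGFP, and thus differed from pcDNA3 also in its promoter and reporter. All cells of both groups were of the same line, were transfected with the same reagent and grew in a medium with insulin and dexamethasone. Each value is a log2 expression level adjusted for transcript length, and the libraries were bulk RNA, so that a small change in every cell and a larger change in a share of the cells cannot be told apart.

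These genes belong to a few connected circuits. AFP encodes alpha-fetoprotein, the main plasma protein of the fetus and a serum marker of liver cancer, and sits beside its family member ALB, which takes over in the adult. LIN28B binds the precursors of let-7 miRNAs and blocks their maturation, and let-7 in turn represses mRNAs such as HMGA2, IGF2BP1, IGF2BP3 and LIN28B itself, so that LIN28B and these targets are usually high together in embryonic cells. DLK1, IGF2, H19 and PEG10 are imprinted, which means that in most tissues the copy inherited from either the father or the mother is silent.

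The sequences that tie the second circuit together are given first, because they show which members carry the letters that let-7 pairs with. The mature let-7a-5p is shown with its seed (bases 2 to 8) in capitals, and below it the first seed match in the 3′ untranslated part of each member that has any, with the match CTACCTC in capitals. The miRNA sequence is from RefSeq (GRCh38.p14), and the others were read from hg38 with the canonical transcripts of GENCODE release 44.
let-7a-5p: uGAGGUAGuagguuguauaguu
LIN28B, chr6:105078812-105078834, plus strand: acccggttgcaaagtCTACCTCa
IGF2BP1, chr17:49051061-49051083, plus strand: tgtgtgcgaagtaaaCTACCTCa
IGF2BP3, chr7:23311795-23311817, minus strand: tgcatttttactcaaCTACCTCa
HMGA2, chr12:65963298-65963320, plus strand: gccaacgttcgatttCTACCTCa

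The number of matches to this motif, read on the transcript strand, was 4 in LIN28B, 4 in IGF2BP1, 4 in HMGA2 and 1 in IGF2BP3. AFP, GPC3, DLK1, IGF2 and PEG10 had 0. For PEG10 the 3′ untranslated part of the transcript used was only 16 bases long, so that its 0 is not informative. Among 14243 genes of the table with a 3′ untranslated part, 10.89% had at least 1 match and 0.25% had at least 3. A match describes these letters only, and miRNA levels were not analysed here.

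None of the 9 measured genes passed the test across all genes between pGRHL2 and pcDNA3. Their log2 fold changes (log2 FC, pGRHL2/pcDNA3) lay between -0.09 for LIN28B and 0.20 for IGF2, which are folds of 0.940 and 1.15. With limma on same-numbered pairs and Benjamini-Hochberg adjustment over all genes, 0 of 9 were called higher and 0 of 9 lower at an adjusted p under 0.05, against 1.69% of all genes called higher and 0.501% called lower. These shares rest on the trend of spread with level that limma fits, since without it 4 genes were called higher and 2 lower. An unadjusted p under 0.05 was reached by 1 of 9 members (IGF2), against 16% of all genes. In the fit without the replicate block, 1 member was called higher, again IGF2. For 7 of 9 members the log2 FC was smaller than the SD of its 4 pair differences, and for 8 of 9 the 95% interval of the log2 FC covered 0. Together these intervals spanned folds from 0.857 to 1.26. They draw on the spread of genes of similar level and can be too narrow for members whose pairs differed more, such as IGF2BP3 (SD of 0.29). Larger changes of such members are therefore not excluded. Each log2 FC is given as the mean ± SD of 4 pair differences, with its adjusted p from limma. For the transfected gene itself it was 9.48 ± 0.57 (n = 4 pairs, adjusted p = 4.84e-08), and the groups did not overlap. A test that misses the threshold does not show equal levels, and the interval of each gene is therefore given below.

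**Figure D1:**
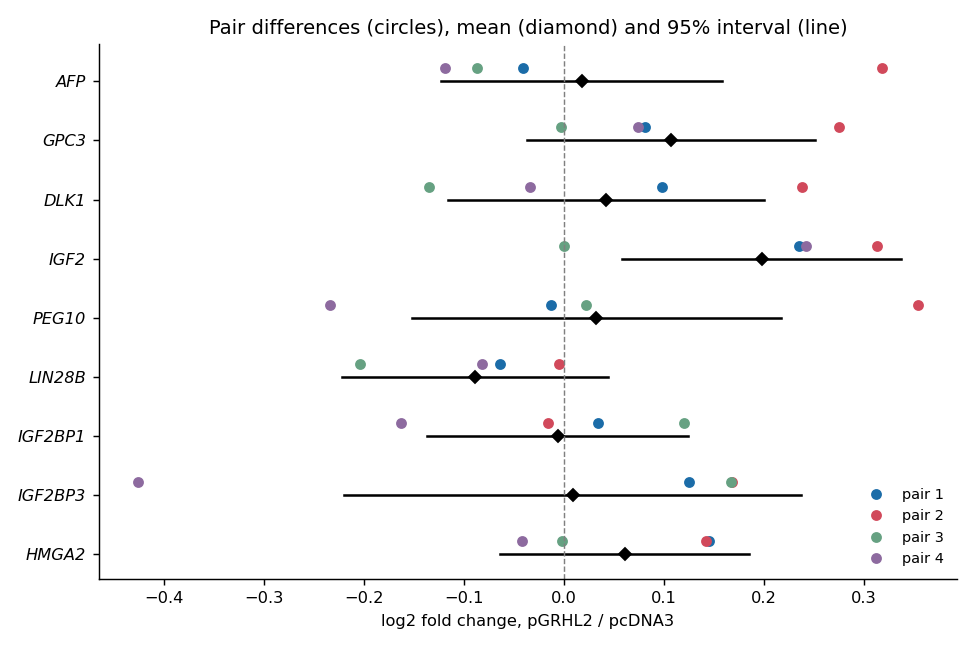
Log2 fold change of each measured gene (x axis, pGRHL2 over pcDNA3) with 1 circle per same-numbered pair, a diamond for the mean and a line for the 95% interval of the limma fit. The interval covers 0 for 8 of 9 genes, and IGF2, with 0.06 to 0.34, is the exception.

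Although none was called, most of these genes were highly expressed in HepG2 cells. In pGRHL2 9 of 9 had a mean level above the median of all genes (6.72) and in pcDNA3 8 of 9, the exception being IGF2 with 6.70, which over all libraries stood at the 50.65 percentile. Over all libraries 7 of 9 stood at or above the 80th percentile. The levels spanned 10.3 log2 units, in the order AFP (17.11), PEG10 (12.80), IGF2BP1 (11.50), HMGA2 (11.28), DLK1 (10.43), IGF2BP3 (9.84), GPC3 (9.61), LIN28B (8.64) and IGF2 (6.79). Of the 8 neighbouring pairs in this order, 1 had library values that overlapped, namely IGF2BP3 (9.63 to 10.05) and GPC3 (9.48 to 9.75). AFP was the highest of the 17561 genes in 8 of 8 libraries on this scale, where the transcript length used for each gene affects its rank.

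**Figure D2:**
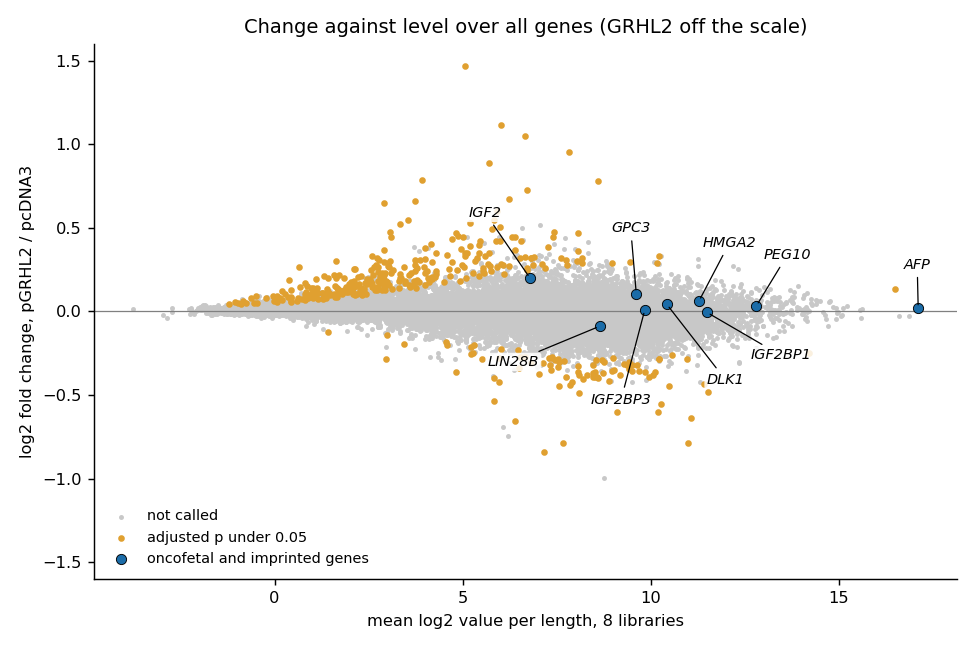
Log2 fold change of every gene (y axis, pGRHL2 over pcDNA3) against its mean log2 level (x axis), with called genes in orange and the 9 members in blue. The members lie between -0.09 and 0.20, inside the cloud of genes that were not called, and AFP is the point farthest to the right at 17.11.

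Some facts of the whole table bear on these values. Hepatocyte markers were present for 10 of 10 genes at mean levels from 8.06 to 16.88. Of these markers, 0 were called by limma and 1 had an unadjusted p under 0.05, against 16% of all genes. The summed level of the hepatocyte markers on the linear scale was 188095 to 216735 in pcDNA3 and 194530 to 224272 in pGRHL2. Cholangiocyte markers were present for 6 of 6 genes with 0 called and 2 at an unadjusted p under 0.05 (summed level of 16651 to 21049 in pcDNA3 and 17750 to 22384 in pGRHL2). Of the leukocyte markers 1 of 4 was in the table (CD14, summed level of 16.2 to 16.6 and 15.8 to 16.3), of the endothelial markers 2 of 4 (45.1 to 48.1 and 45.8 to 48.8), and of the stellate cell and fibroblast markers 2 of 5 (83.3 to 91.0 and 90.2 to 98.5), again with 0 called (0, 0 and 1 at an unadjusted p under 0.05). Their part in the members' values was not tested. In each gene the same-numbered pcDNA3 and pGRHL2 libraries had the same mean for all 4 numbers, so that their values mirror each other around it, and the spread between libraries of a group lacks what such a pair shared. Groups that do not overlap therefore mean no more than 4 pair differences of the same sign. Without read counts, depth and counting error were unknown.

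AFP (GENCODE release 44, hg38 chr4:73431138-73456174, plus strand, protein coding) was read at 17.13, 16.95, 17.15 and 17.17 in pcDNA3 libraries 1 to 4 and at 17.09, 17.27, 17.06 and 17.05 in pGRHL2 libraries 1 to 4. The groups overlapped, with pGRHL2 lower in 3 pairs and higher in pair 2, which held both the lowest and the highest library. The log2 FC was 0.02 ± 0.20 (n = 4 pairs), with a 95% interval of -0.12 to 0.16 and adjusted p = 0.934. This interval draws on the spread of genes of similar level, and the pair 2 difference of 0.32 lay outside it. Without pair 2 the log2 FC of AFP was -0.08 (adjusted p = 0.169).

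ALB, which encodes serum albumin and lies 9.66 kb before AFP on the same strand, moved with AFP from pair to pair. Its pair differences were -0.14, 0.33, -0.19 and -0.12, compared with -0.04, 0.32, -0.09 and -0.12 for AFP, and both had the same sign in 4 of 4 pairs. The 2 genes were measured in the same libraries, so that this is a description of these pairs only. Over all pairs ALB had -0.03 ± 0.24 on the log2 scale (n = 4 pairs, adjusted p = 0.913). Leaving out pair 2, the only pair with a positive difference, gave -0.15 with adjusted p = 0.0289. With all pairs ALB was not called, and a fit without the 1 opposite pair cannot serve as a call. AFP stood above ALB in 8 of 8 libraries, by 0.23 log2 units on average, which on this per-length scale places the fetal transcript ahead of the adult one. AFM (afamin), on the other side of AFP at 25.6 kb, was weakly expressed (mean level of 3.84) and had a difference of -0.06 ± 0.06 (adjusted p = 0.450). GC, the vitamin D binding protein and the remaining member of the albumin family in the table, was lower still (mean level of 0.60, adjusted p = 0.987).

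The promoter of AFP is shown because AFP had the highest level on this per-length scale and because it was searched for the GRHL motif. The 250 bases before the RefSeq start site (GRCh38.p14, chr4:73435971-73436220, plus strand) are given below. Capitals mark the TATA box and the letters GTTAAT, which form only part of an HNF1 site.
AFP promoter: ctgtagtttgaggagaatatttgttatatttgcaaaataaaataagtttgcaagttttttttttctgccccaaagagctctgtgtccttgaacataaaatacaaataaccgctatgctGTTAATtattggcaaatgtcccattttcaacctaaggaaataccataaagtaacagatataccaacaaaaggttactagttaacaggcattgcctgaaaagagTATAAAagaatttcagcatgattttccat

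The TATA box began at -29 and GTTAAT at -132, counted from the start site, whereas CCAAT was found at -125 and at 19. Whole HNF1 sites were not searched for, so that others may lie in these bases. The TATA box was searched as TATAAA, and all motifs were searched on both strands of the 300 bases around the start site. Of 35116 RefSeq promoters, 11.5% held the TATA box, 6.88% the letters GTTAAT and 34.6% the CCAAT letters. The GRHL motif AACNGGTT had 0 matches in the promoters of AFP, LIN28B (2 promoters), IGF2BP3 and H19, the members whose promoters were analysed here, and 1.73% of all promoters had it. The stricter AACCGGTT, with 0 matches as well, was in 0.134% of promoters. These counts say only that the letters are not in these windows.

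GPC3 and DLK1 are proteins of the cell surface. GPC3 (chrX:133535745-133987100, minus strand), a glypican anchored to the membrane and a tissue marker of liver cancer, was read at 9.57, 9.48, 9.62 and 9.58 in pcDNA3 and at 9.66, 9.75, 9.61 and 9.65 in pGRHL2. It was higher in pairs 1, 2 and 4 and nearly level in pair 3 (-0.0027), where the groups just overlapped. The log2 FC was 0.11 ± 0.12 (n = 4 pairs), with an interval of -0.04 to 0.25 and adjusted p = 0.466. Among the other glypicans, GPC1 was higher in 4 of 4 pairs (0.18 ± 0.10, adjusted p = 0.194), and GPC4, the neighbour of GPC3 at 120 kb, was at the 4.0 percentile of levels (mean of 0.06) with 0.07 ± 0.05 (adjusted p = 0.0972). GPC2 and GPC6 had log2 FC of 0.02 and 0.01. DLK1 (chr14:100725705-100738224, plus strand), an imprinted ligand-like protein of hepatoblasts that is related to the Notch ligands, was read at 10.38, 10.31, 10.50 and 10.44 in pcDNA3 and at 10.48, 10.55, 10.36 and 10.41 in pGRHL2. It was higher in pairs 1 and 2 and lower in pairs 3 and 4. Its log2 FC was 0.04 ± 0.16, with an interval of -0.12 to 0.20 and adjusted p = 0.845, and it was -0.02 without pair 2. Its paralog DLK2 had a log2 FC of -0.03 ± 0.07.

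IGF2 came nearest to a call. It encodes an insulin-like growth factor, and its values were 6.68, 6.64, 6.79 and 6.67 in pcDNA3 and 6.91, 6.95, 6.79 and 6.92 in pGRHL2. All pGRHL2 libraries stood above all pcDNA3 libraries, by 0.24, 0.31 and 0.24 in pairs 1, 2 and 4, although in pair 3 the difference was 0.00026. IGF2 was the 1 member of 9 whose groups did not overlap with pGRHL2 higher, against 13.4% of all genes. The log2 FC was 0.20 ± 0.14 (n = 4 pairs), with an interval of 0.06 to 0.34, an unadjusted p = 0.0111 and an adjusted p = 0.152. By an exact permutation of the signs of these differences (two-sided) p was 0.125, and 4 pairs allow none smaller. Leaving out each pair in turn gave log2 FC from 0.16 to 0.26 and adjusted p from 0.103 to 0.453, the largest log2 FC being that without pair 3. The value may have a limit in the annotation. In GENCODE release 44, IGF2 (chr11:2129112-2158391, minus strand) shares 44.4% of its exon bases with other genes. With a single gene on the same strand (ENSG00000284779) it shares 37.9%. The counting without strand leaves out reads that cannot be given to a single gene. Whether the counting used the genes of this release was not examined, and a loss of IGF2 reads was not tested. IGF2-AS, the antisense gene inside IGF2, stood at 0.11 with a log2 FC of -0.0029, and TH, at 5.54 kb, had a log2 FC of 0.04.

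PEG10, an imprinted gene derived from a retrotransposon, had the second highest level of the members. It was read at 12.81, 12.63, 12.79 and 12.92 in pcDNA3 and at 12.80, 12.98, 12.82 and 12.69 in pGRHL2. Pair 2 was 0.35 higher and pair 4 was 0.23 lower in pGRHL2, while pairs 1 and 3 differed by 0.02 or less. The log2 FC of PEG10 was 0.03 ± 0.24 (n = 4 pairs), with an interval of -0.15 to 0.22 and adjusted p = 0.908, and without pair 2 it was -0.08. PEG10 (chr7:94656325-94669695, plus strand) starts within SGCE, an imprinted gene read in the opposite direction, with which it shares 3.27% of its exon bases. SGCE encodes epsilon-sarcoglycan and was lower in 4 of 4 pairs, by 0.29, 0.13, 0.17 and 0.03, or -0.16 ± 0.11 on average, with adjusted p = 0.260. PEG10 had the direction of SGCE in pairs 1 and 4 and the opposite direction in pairs 2 and 3, neither gene was called, and the difference between them was not tested. RTL1, the retrotransposon-derived paralog next to DLK1, was at -1.39, among the lowest values of the table.

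**Figure D3:**
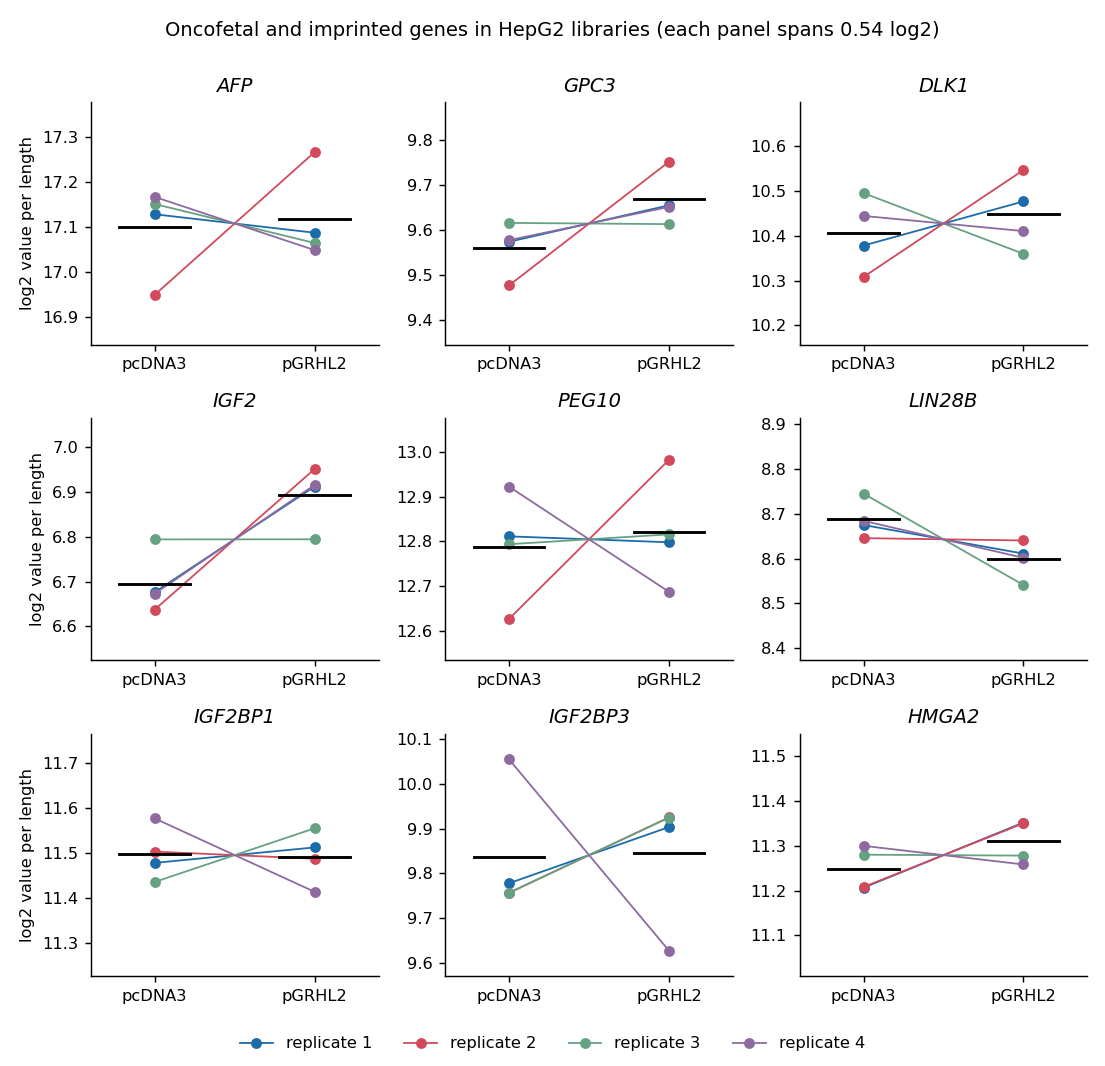
Log2 level per length (y axis) of the 9 measured genes in each library, with lines joining same-numbered pcDNA3 and pGRHL2 libraries, 1 colour per replicate number and a black bar for the group mean. The pGRHL2 points stand above the pcDNA3 points for IGF2 and below them for LIN28B, and the other 7 genes overlap.

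In the LIN28B and let-7 circuit the RNA-binding proteins came first. LIN28B (chr6:104936616-105083332, plus strand) was read at 8.67, 8.65, 8.74 and 8.68 in pcDNA3 and at 8.61, 8.64, 8.54 and 8.60 in pGRHL2. It was lower in 4 of 4 pairs, and thus the 1 member of 9 with groups that did not overlap in this direction (10.5% of all genes), although in pair 2 by only -0.0052. The log2 FC was -0.09 ± 0.08 (n = 4 pairs), with an interval of -0.22 to 0.04 and adjusted p = 0.525. The exact permutation of signs again gave 0.125. Its paralog LIN28A was at the 2.37 percentile of levels (mean of -0.35) and also lower in 4 of 4 pairs (-0.04 ± 0.04, adjusted p = 0.249), so that in HepG2 cells LIN28B was the main LIN28 transcript.

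IGF2BP1 and IGF2BP3 bind and stabilise mRNAs, among them that of IGF2. IGF2BP1 (chr17:48997385-49056145, plus strand) was read at 11.48, 11.50, 11.44 and 11.58 in pcDNA3 and at 11.51, 11.49, 11.56 and 11.41 in pGRHL2, so that 2 pairs were higher and 2 lower. Its log2 FC was -0.0063 ± 0.12, with an interval of -0.14 to 0.12 and adjusted p = 0.978, and its sign turned with array weights (0.0036) or equal library totals (0.0071). IGF2BP3 (chr7:23310209-23470491, minus strand) was read at 9.78, 9.76, 9.76 and 10.05 in pcDNA3 and at 9.90, 9.92, 9.92 and 9.63 in pGRHL2. Pairs 1, 2 and 3 were 0.13, 0.17 and 0.17 higher in pGRHL2 and pair 4 was 0.43 lower, the largest difference of any member. The log2 FC of IGF2BP3 was thus 0.0086 ± 0.29, with an interval of -0.22 to 0.24 and adjusted p = 0.984, and it was 0.15 without pair 4 (adjusted p = 0.227). IGF2BP3 shares 17.8% of its exon bases with MALSU1, a gene on the other strand, whose pair differences were 0.08, 0.17, -0.28 and -0.08. The paralog IGF2BP2 had a mean level of 10.29 and a log2 FC of 0.01 ± 0.10 (adjusted p = 0.950).

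HMGA2, a chromatin protein of embryonic cells and the textbook let-7 target, was read at 11.21, 11.21, 11.28 and 11.30 in pcDNA3 and at 11.35, 11.35, 11.28 and 11.26 in pGRHL2. The libraries numbered 1 and 2 were higher in pGRHL2 by 0.15 and 0.14, and those numbered 3 and 4 were lower by 0.0021 and 0.04. The log2 FC of HMGA2 (chr12:65824460-65966291, plus strand) was 0.06 ± 0.10 (n = 4 pairs), with an interval of -0.06 to 0.19 and adjusted p = 0.660. HMGA1, which is expressed more broadly, had a mean level of 13.12 and a log2 FC of 0.04 ± 0.20 (adjusted p = 0.870). LIN28B and the 3 members with let-7 matches beside it thus had log2 FC of -0.09, -0.0063, 0.0086 and 0.06, and none was called.

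Over the 9 members, 7 log2 FC were positive and 2 negative, with a median of 0.03 compared with 0.0017 over all genes. Much of this lay in the libraries numbered 2. Pair 2 held the highest of the 4 differences for 7 of 9 members, compared with 25.8% of all genes. This was shared by the hepatocyte markers, of which 7 of 10 had their highest difference in pair 2, ALB among them. The median difference of the members was 0.08, 0.24, -0.0021 and -0.08 in pairs 1 to 4, while the medians of all genes were between 0.00078 and 0.0059. Without pair 2 the median log2 FC of the members was -0.02. The SD of the pair differences was between 0.08 for LIN28B and 0.29 for IGF2BP3, with a median of 0.14 over the members. The median was 0.23 over the 10 hepatocyte markers and 0.08 over all genes. All genes include many weakly expressed ones, and the members' SD was not compared with that of genes of similar level. What set the libraries numbered 2 apart was not tested.

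Genes near the members were examined next, to see whether any called gene stood beside a member that was not called. Within 200 kb of the 10 listed genes, 51 measured genes other than members were found. Of these 1 was called, against 1.69% of all genes called higher and 0.501% called lower. The called gene was GPNMB, a glycoprotein of lysosomes and the cell surface, at 35.1 kb from IGF2BP3. It was read at 6.17, 6.12, 6.21 and 6.04 in pcDNA3 and at 7.15, 7.20, 7.11 and 7.28 in pGRHL2. GPNMB was higher in 4 of 4 pairs, by 1.05 ± 0.15 on the log2 scale (n = 4 pairs, adjusted p = 3.43e-04), whereas IGF2BP3 had 0.0086. The nearest measured gene on the other side of IGF2BP3 that codes for a protein, TRA2A at 34.3 kb, had a log2 FC of -0.06. Of the 51 genes, 9 had groups that did not overlap with pGRHL2 higher and 4 with pGRHL2 lower, against 13.4% and 10.5% of all genes, and their median log2 FC was 0.01. The neighbours of H19 in the table included MRPL23 at 10.6 kb (log2 FC of 0.03) and IGF2 at 125 kb.

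**Figure D4:**
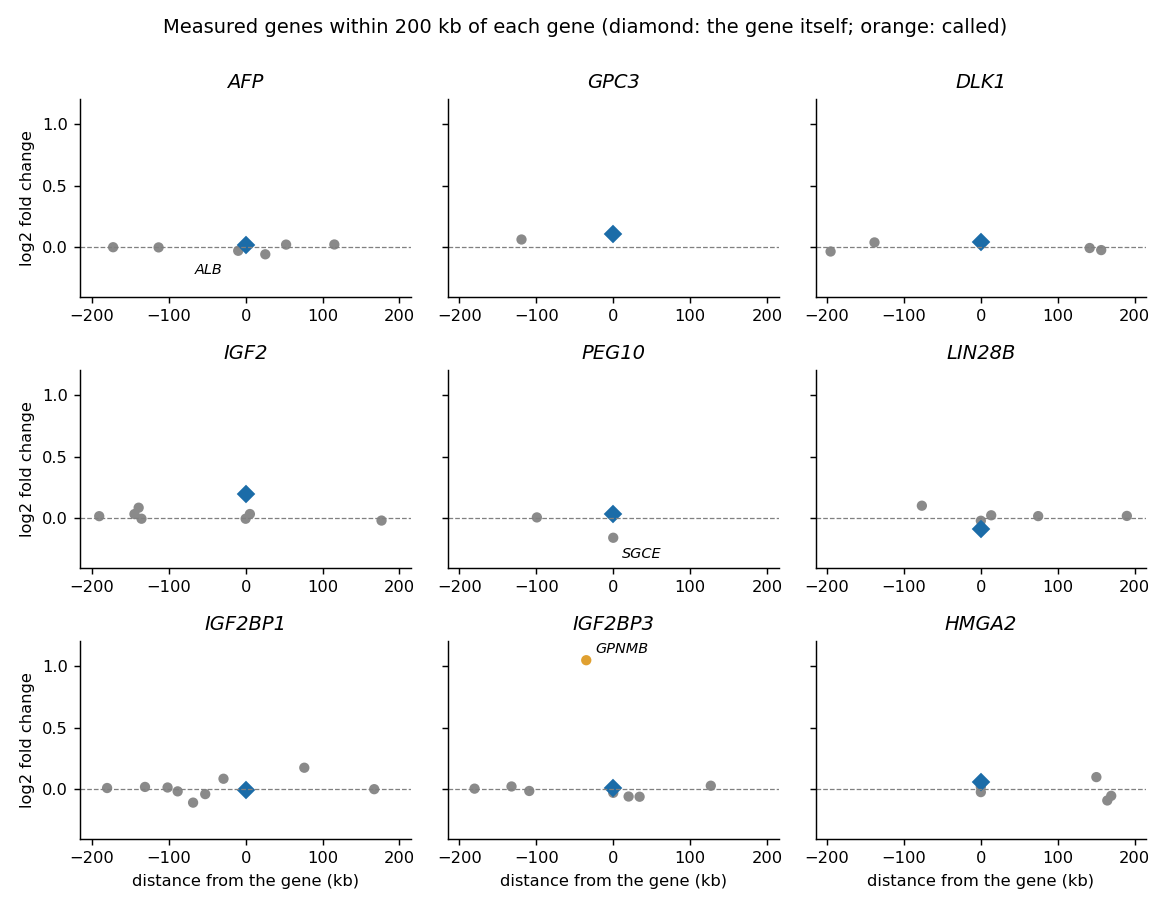
Log2 fold change (y axis) of the measured genes within 200 kb of each member against their distance from it in kb (x axis, lower coordinates to the left), with the member as a diamond at 0. GPNMB beside IGF2BP3 is the 1 called gene, at 1.05, and the other points lie between -0.16 and 0.20.

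The other genes of these pathways were taken from 6 lists. Together they held 98 distinct genes, of which 88 were in the table, with a median log2 FC of -0.0085. Of these 88, 2 were called higher and 1 lower, against 1.69% and 0.501% of all genes. Among 14 further oncofetal and hepatoma-associated genes, all in the table, 1 was called higher and 0 lower. It was PROM1, which encodes the progenitor surface protein CD133, with values of 3.96, 3.95, 3.94 and 4.03 in pcDNA3 and 4.18, 4.19, 4.20 and 4.12 in pGRHL2. The log2 FC of PROM1 was 0.20 ± 0.08 (n = 4 pairs, adjusted p = 0.0308), and leaving out replicate 1, 2 or 3 raised the adjusted p to between 0.121 and 0.151. The median of that list was 0.07. It shares 3 genes with the member paralogs, LIN28A, IGF2BP2 and HMGA1.

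Of the 11 genes of the LIN28 and let-7 pathway, 0 were called by limma. An unadjusted limma p under 0.05 was reached by 2 of them, against 16% of all genes. Of the 11, 2 had a positive and 9 a negative log2 FC (9042 and 8519 over all genes), and the median was -0.04. TUT4, which adds uridines to let-7 precursors bound by LIN28, was lower in 4 of 4 pairs (-0.15 ± 0.07, adjusted p = 0.247). Of 17 let-7 targets outside the members, 8 had a positive and 9 a negative log2 FC, with a median of -0.0045. By limma 1 was called higher and 0 lower, against 1.69% and 0.501% of all genes. The called gene was CCND2, encoding the cell cycle protein cyclin D2, a weakly expressed gene read at 2.72, 2.77, 2.70 and 2.69 in pcDNA3 and at 2.90, 2.85, 2.92 and 2.93 in pGRHL2. Its log2 FC was 0.17 ± 0.07 (adjusted p = 0.0264), and leaving out replicate 1, 3 or 4 raised the adjusted p to between 0.0912 and 0.126. Since rlog, the deposited transformation, pulls weakly expressed genes towards their mean, both the changes and the pair spread of PROM1 and CCND2 may be affected. How this bears on their calls was not tested.

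Among 33 imprinted genes outside the members, 26 were in the table, and their median log2 FC was -0.0027. Of these 26, 0 were called by limma and 4 had an unadjusted p under 0.05, against 16% of all genes. NAP1L5 was lower by 0.08, 0.06, 0.09 and 0.06 in the 4 pairs, or -0.07 ± 0.01 on average, with adjusted p = 0.313. CPA4, a carboxypeptidase gene, had the largest log2 FC of the list and is named here after its values were seen. Its pair differences were 0.39, -0.10, 0.82 and 0.60, so that the groups overlapped, with a log2 FC of 0.43 ± 0.39 (unadjusted p = 0.00814, adjusted p = 0.128). Leaving out replicate 2, the only pair with a negative difference, gave 0.60 with adjusted p = 0.0244. With all pairs CPA4 was not called, and a fit without the 1 opposite pair cannot serve as a call. In the insulin-like growth factor axis 11 of 14 genes were in the table and 0 were called (1 at an unadjusted p under 0.05), with a median of 0.02. IGFBP6, a binding protein with preference for IGF2, was higher in 4 of 4 pairs (0.29 ± 0.23, adjusted p = 0.139), with differences from 0.0094 in pair 2 to 0.58 in pair 4.

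The last list held 16 textbook regulators of AFP, all in the table. Of these, 5 had a positive and 11 a negative log2 FC, with a median of -0.07. Over all 17561 genes, 9042 were positive and 8519 negative, and 1.69% were called higher and 0.501% lower. The 1 called gene of the list was GATA4, a transcription factor of early liver development. It was read at 9.12, 9.14, 9.18 and 9.09 in pcDNA3 and at 8.86, 8.84, 8.80 and 8.89 in pGRHL2, and was thus lower in 4 of 4 pairs, by 0.25, 0.30, 0.38 and 0.19. The log2 FC of GATA4 was -0.28 ± 0.08 (n = 4 pairs), with an interval of -0.41 to -0.15 and adjusted p = 0.0497. Its call was lost when any replicate was left out, with adjusted p between 0.0724 and 0.214, although the log2 FC remained between -0.31 and -0.25. GATA4, like PROM1 and CCND2, also lost its call when limma was fitted without the trend (adjusted p = 0.0913, 0.114 and 0.130). AFP itself, with 0.02, was not called.

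**Figure D5:**
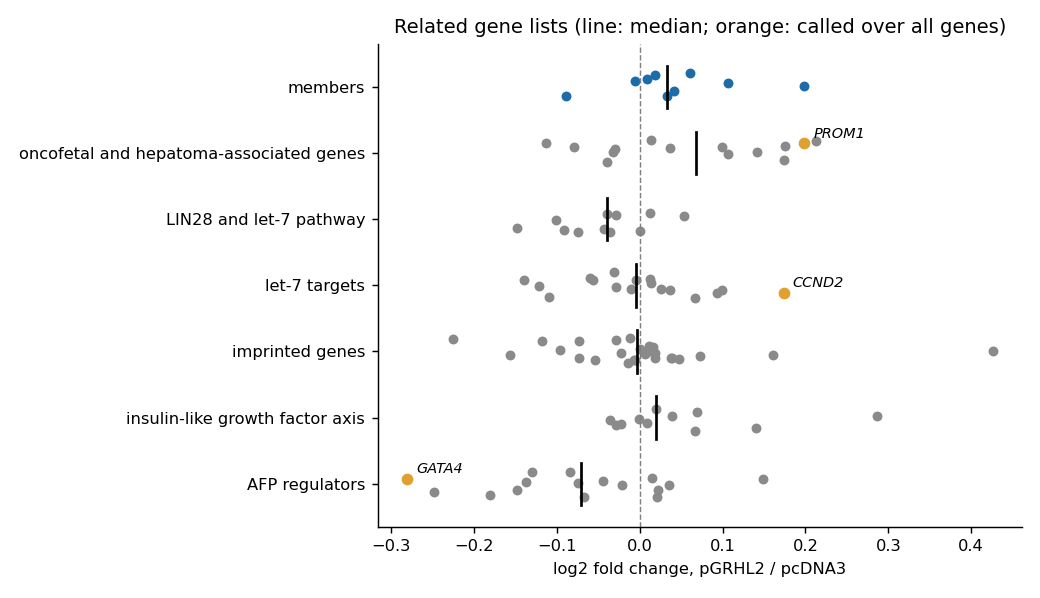
Log2 fold change (x axis, pGRHL2 over pcDNA3) of the 9 members and of the measured genes of 6 related lists (y axis, points spread vertically for clarity), with a line at each median and called genes in orange. PROM1, CCND2 and GATA4 are called, at 0.20, 0.17 and -0.28, and the list medians lie between -0.07 and 0.07.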

How the data were processed

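HepG2 libraries were grouped by the plasmid and replicate number in their labels (4 pGRHL2, 4 pcDNA3). As the study's methods describe it, paired-end mRNA reads were mapped to hg38 with HISAT2 and counted over exons with HTSeq in union mode without strand, genes with few reads were dropped, and the authors transformed the counts with rlog (DESeq2) and adjusted them for mean transcript length. The submitters' processing notes list HISAT2 2.2.1, HTSeq 0.9.1 and DESeq2 1.40.2. Despite a name that speaks of FPKM, the deposited values are on a log2 scale, since 3.71% lie below 0 and, over 941 genes with almost no variation, the regression of value on log2 transcript length had a slope of -0.878. The values run from -3.76 to 17.3, with library medians of 6.71 to 6.73. A stray character was stripped from 1 value. The table held 0 columns of other samples.

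The mean of same-numbered libraries did not vary over the 4 numbers in any of 17561 genes, a step not given in the sources used here. Deviations within a pair thus mirror each other by construction, their correlation cannot show pairing, and the pairing rests on this structure. The main test was limma 3.58.1 in R 4.3.3 (lmFit, eBayes with trend) with plasmid and replicate number as terms, fitted across all genes with Benjamini-Hochberg adjustment and a threshold of 0.05. It leaves 3 residual degrees of freedom, compared with 6 without the block. Intervals are those of this moderated fit at 95%. The procedure was tested on simulated data. Where nothing separates cultures beyond their labels, p-values measure only the spread between these pairs.

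The members and lists were chosen with earlier results of these data known. The genes named were the members, GRHL2, the members' paralogs, measured genes within 200 kb and, from each related list, every called gene or otherwise up to 2 with the largest change among those whose groups do not overlap. Symbols matched GENCODE release 44 for 99.9% of genes. Alternatives were the fit without the block, eBayes without trend or robust, array weights, 2 scalings, 2 filters on the mean value (0 and 5) and leaving out each replicate number (both libraries).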

Additional observations from a re-analysis of the deposited data

Results flagged for a closer look

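The highest or lowest of the 4 pair differences stood far from the other 3 (a gap above Dixon's 95% critical value, relative to the whole range) for 3 of 36 genes examined, and chance alone gives about 1 in 20. For IGF2BP3 it was pair 4, at -0.43 against 0.13 to 0.17 in the others. For ALB it was pair 2, at 0.33 against -0.19 to -0.12 in the others, and AFP, with a gap of 0.823 of its range in the same pair, stayed just below the limit. For LIN28A, a weakly expressed gene, it was pair 3, at -0.10 against -0.02 in each of the others.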

How the results depend on the processing

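No member was called under any setting tried with the replicate block. In the fit with no replicate block, which treats the mirrored libraries as independent, IGF2 was called (log2 FC of 0.20, limma adjusted p of 0.0156), giving 1 member called higher and 0 lower. That fit without pairing called 1821 higher and 1427 lower genes of all genes, against 297 and 88. It also called 4 higher oncofetal and hepatoma-associated genes, 1 lower gene of the LIN28 and let-7 pathway, 2 higher and 1 lower let-7 targets, 1 higher and 2 lower imprinted genes, 1 higher gene of the insulin-like growth factor axis, and 1 higher and 3 lower AFP regulators. Genes called there and not with the block included TUT4, SGCE, NAP1L5, IGFBP6, GPC1, GPC4, TH and CPA4, and the block changed the call of no other gene with printed values. Over all genes, array weights gave 503 higher and 221 lower genes, eBayes without trend 4 and 2, and equal totals without GRHL2 495 higher. A mean value of at least 5, which left out the weakly expressed genes, gave 63 higher among fewer tested genes. Leaving out each replicate gave 79 to 156 higher and 8 to 68 lower. PROM1, CCND2 and GATA4 lost their calls without trend (limma adjusted p of 0.114, 0.130 and 0.0913), which left 0 called in each of their lists. PROM1 and CCND2 were not tested at a mean of at least 5, where 0 genes of either list were called higher. Leaving out each replicate, the lists of PROM1 and CCND2 had 0 to 1 genes called higher, imprinted genes 0 to 1 higher and AFP regulators 0 lower. The log2 FC changed sign for IGF2BP1 with array weights (0.0036) and equal totals (0.0071), for GC with these settings (0.0008 and 0.0127), for MALSU1 with array weights (0.0108) and with equal totals for RTL1 (0.0082) and IGF2-AS (0.0105). Leaving out each replicate gave ranges that crossed 0 for AFP (-0.0822 to 0.0634), DLK1 (-0.0236 to 0.101), IGF2BP1 (-0.0483 to 0.0461), IGF2BP3 (-0.0446 to 0.154), PEG10 (-0.0752 to 0.121), ALB (-0.148 to 0.025), GC (-0.0063 to 0.0042), GPC6 (-0.0299 to 0.0357), IGF2BP2 (-0.0211 to 0.0531), RTL1 (-0.0090 to 0.0003), HMGA1 (-0.0172 to 0.134), MALSU1 (-0.0941 to 0.0569), IGF2-AS (-0.017 to 0.0057) and MRPL23 (-0.0618 to 0.101), and the median of the members ran from -0.02 to 0.10. GPC4 was called with array weights (limma adjusted p of 0.0375) and equal totals (0.0439). The cause of these differences was not tested. Depth was unknown, so that no counting error bounds these values.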
